A study of Homo sapiens with 12 samples.

Results

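The genes described here are 10 regulators and markers of epithelial-mesenchymal transition (EMT) in HEYA8 ovarian cancer cells: the transcription factors ZEB1, ZEB2, SNAI1, SNAI2, TWIST1 and TWIST2, the cadherins CDH1 (E-cadherin) and CDH2 (N-cadherin), VIM (vimentin) and FN1 (fibronectin). They were chosen by name from the 56269 genes of the count table, and 9 of the 10 passed the filter on low counts. Expression was measured by RNA-seq in 12 libraries, 3 for each of 4 cell populations made with lentiviral vectors: Control (vector alone), ∆GAG-BG, S534A and S545A. The study expressed mutants of betaglycan, the co-receptor for TGF-β encoded by TGFBR3. S534A and S545A each replace 1 of the attachment serines of its glycosaminoglycan chains with alanine, and the study calls them CS-BG and HS-BG, while ∆GAG-BG lacks both sites. All groups carried the vector with its fluorescent reporter and were sorted on it. They were kept at steady state in growth medium with 10% serum and no ligand added. HEYA8 was used because it makes little betaglycan of its own. The third S545A library is titled S545S. Nothing shows that libraries of a group came from separate cultures, so each p-value measures the spread between these libraries only.

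EMT is the switch in which epithelial cells lose E-cadherin junctions and gain a motile, mesenchymal form. ZEB1 and ZEB2 are zinc-finger repressors, SNAI1 (Snail) and SNAI2 (Slug) are repressors of the Snail family, and TWIST1 and TWIST2 are basic helix-loop-helix factors. E-cadherin is a classic gene they silence, whereas N-cadherin, the intermediate filament protein vimentin and the matrix protein fibronectin are the usual mesenchymal readouts. TGF-β is a well-known inducer of the programme. The comparisons ask whether the chain sites of betaglycan go with a change in these genes at steady state.

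FN1 was the gene of the 10 with the widest spread over the libraries, so the sequence before its start is shown. The 146 bases lie on the minus strand of GRCh38 at chr2:215436173-215436318, immediately before the first FN1 base of the count table, and come from the RefSeq promoter set (GRCh38.p14). Capitals mark the letters TGACGTCA, the full cyclic AMP response element, which read the same on both strands.
FN1: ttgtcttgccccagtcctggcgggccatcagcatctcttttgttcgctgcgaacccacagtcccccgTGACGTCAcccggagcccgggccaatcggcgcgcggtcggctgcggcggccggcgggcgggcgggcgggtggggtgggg
The motif began 79 bases before that first base. The same letters were in 148 of 35116 RefSeq promoter entries over a window of the same length and place, or 0.421%. Of the members, 6 had an entry, and FN1 alone of those 6 held the motif. A match of letters is not evidence that a factor binds there.

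The libraries held 16410001 to 29504297 counts each. Levels are given as CPM, the share of a library's counts scaled by TMM, on which the upper limit behind a count of 0 (3 counts) stood at 0.1 to 0.182 CPM. Of the table's genes, 22366 were at 0 in every library. The gene of the constructs, TGFBR3, went against some labels. It stood at 413 to 574 CPM in the S534A and S545A libraries. In the libraries labelled ∆GAG-BG it was 259.3, 20.3 and 21.4 CPM, and in those labelled Control 15.9, 258.6 and 259 CPM. Replicate 1 of these 2 groups was therefore unlike its own replicates 2 and 3, and every comparison with ∆GAG-BG or Control below is between libraries as labelled. ∆GAG-BG replicate 1 also held 11850 CPM of HSPA5, an endoplasmic reticulum chaperone, against 286.9 to 3902 CPM in the other 11 libraries. HSPA5 divided the ∆GAG-BG and Control libraries as TGFBR3 did. Control replicates 2 and 3 held 3874 and 3902 CPM of it. Control replicate 1 and ∆GAG-BG replicates 2 and 3 held 1289, 1254 and 1226 CPM. FN1 in libraries 2 and 3 of Control, ∆GAG-BG and S545A differed by at most 0.112 on the log2 scale, and the scarce SNAI1 by up to 0.672.

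The labels call the line high grade serous ovarian cancer. PAX8, a factor of the Müllerian lineage, was at 193 to 295 CPM, WT1 at 3.41 to 8.37 and MSLN at 6.89 to 18, while MUC16 and EMX2 had no count in any library. Of the 9 ovarian carcinoma markers listed, 3 passed the filter. Leukocyte and fibroblast markers were low: 6 leukocyte genes summed to at most 0.196 CPM and 6 fibroblast genes to at most 1.33 CPM. The endothelial list was not: it summed to 81.3 to 146 CPM, led by ROBO4 at 71.6 to 133 CPM. VWF was at 2.63 to 14.9 CPM and KDR at 2 to 3.77, while PECAM1, CLDN5 and TEK were each at most at 0.767 CPM.

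The 10 genes together gave a mesenchymal picture in every library: vimentin, fibronectin, N-cadherin and all 6 transcription factors were detected, and E-cadherin was not. Compared per kilobase of exon, VIM was highest with a mean level of 523.1 CPM per kilobase, followed by FN1 (38.1), CDH2 (28), TWIST2 (26), ZEB1 (14.8), SNAI2 (14.2), TWIST1 (7.32), ZEB2 (1.48) and SNAI1 (0.665). The ranges over libraries overlapped for 3 neighbouring pairs. FN1 was above CDH2 in 6 of 12 libraries, CDH2 above TWIST2 in 8, and ZEB1 above SNAI2 in 8. The other neighbours kept their order in all 12. The lengths used join all annotated exons, 23707 bases for ZEB2, so a gene with many alternative exons has its level per kilobase understated.

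**Figure D1:**
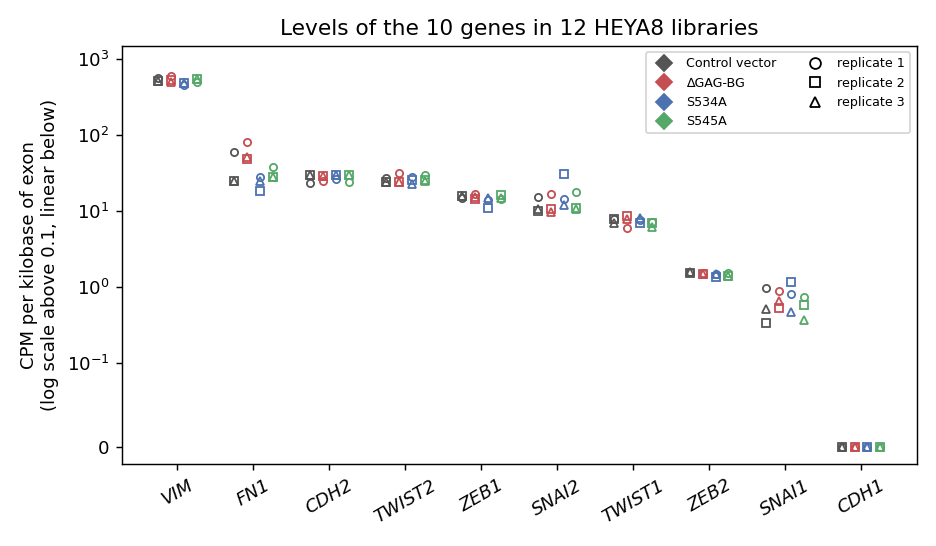
CPM per kilobase of exon of the 10 genes (vertical axis, logarithmic above 0.1 and linear below), with 1 point per library, coloured by group and shaped by replicate number. VIM lies between 454 and 607 in all libraries, CDH1 lies at 0 in all, and FN1 spreads from 18.5 to 81.5.

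Among the repressors, ZEB1 (chr10:31318495-31529814) was at 126.9, 135.6 and 138.2 CPM in the Control libraries and at 144.2, 126.4 and 130.8 in the ∆GAG-BG libraries. It was at 120.6, 94.8 and 127.4 CPM in S534A and at 123.9, 138.8 and 128.3 in S545A. S534A replicate 2 was the lowest of the 12 and the groups overlapped. In S534A against ∆GAG-BG, ZEB1 had a log2 fold change of -0.23 (SE 0.108; edgeR's quasi-likelihood test, unadjusted p = 0.0571, adjusted p = 0.89). Without S534A replicate 2 that change was -0.11, and without S534A replicate 3 it was -0.31 (edgeR, unadjusted p = 0.0211). Between S545A and S534A, the value for ZEB1 went from 0.19 to 0.28 without S534A replicate 3 (edgeR, unadjusted p = 0.0348). In bulk RNA, fewer cells expressing a gene and less RNA of it per cell cannot be told apart. An antisense gene, ZEB1-AS1, overlaps ZEB1 by 366 bases and held 186 to 317 counts.

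ZEB2 (chr2:144384081-144524583) was the steadiest member. Its level ran from 31.8 CPM in S534A replicate 2 to 37 CPM in Control replicate 1, with group means of 36.5 ± 0.637 in Control, 35.6 ± 0.801 in ∆GAG-BG, 34.3 ± 2.08 in S534A and 34.1 ± 2.22 in S545A (SD, 3 libraries each, as for all means here). The SD of its log2(CPM + 1) over the 12 libraries was 0.07, and 4.24% of the genes tested had a smaller one. The groups of each of the 4 comparisons overlapped. Its 4 log2 fold changes lay between -0.061 and -0.005.

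SNAI1 (chr20:49982999-49988886) was the scarcest of the detected members. It measured 1.62, 0.565 and 0.861 CPM in Control and 1.5, 0.882 and 1.08 in ∆GAG-BG. In S534A it was 1.35, 1.97 and 0.788 CPM, and in S545A 1.24, 0.979 and 0.614. These levels rest on 12 to 59 counts per library, and all groups overlapped. The log2 fold change in S545A against S534A was -0.58, and its 95% interval, -1.5 to 0.33, holds both 0 and a 2-fold decrease.

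SNAI2 (chr8:48917690-48921740) was at 35.1, 22.9 and 24.6 CPM in Control and at 37.8, 24.3 and 22.5 in ∆GAG-BG. It was at 33.2, 69.4 and 27.7 CPM in S534A and at 41.1, 25.1 and 24.4 in S545A. S534A replicate 2 stood alone at the top, while the remaining 11 libraries lay between 22.5 and 41.1 CPM. Against ∆GAG-BG, SNAI2 had a log2 fold change of 0.63 in S534A (SE 0.348; edgeR, unadjusted p = 0.098, adjusted p = 0.89). That change was 0.12 without S534A replicate 2, but 0.86 without S534A replicate 3 and 0.90 without ∆GAG-BG replicate 1 (edgeR, unadjusted p = 0.0256 and 0.0382). The change between S545A and S534A, -0.53, was -0.01 without S534A replicate 2 and -0.76 without S534A replicate 3 (unadjusted p = 0.0441). S534A replicate 2 was the library with the highest ID1 (168 CPM) and ID3 (71.2 CPM), BMP-responsive inhibitors of helix-loop-helix factors, and the lowest HSPA5. The part of these in the SNAI2 and ZEB1 values was not tested.

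No TWIST gene passed an unadjusted p of 0.05 in any comparison with all libraries in. TWIST1 (chr7:19020991-19117672) had means of 15.2 ± 1.12 CPM in Control, 15.2 ± 2.84 in ∆GAG-BG, 15.3 ± 1.13 in S534A and 13.8 ± 0.962 in S545A. TWIST2 (chr2:238848032-238910543) had means of 47.4 ± 3.32, 49.6 ± 7.97, 47.4 ± 5.07 and 50.6 ± 5.16 CPM in the same order. All groups overlapped for both genes. The 95% intervals of their 8 log2 fold changes lay between -0.449 and 0.369, so a 2-fold change of either gene was outside them. Without ∆GAG-BG replicate 1, TWIST1 in S545A against ∆GAG-BG went from -0.14 to -0.28 (edgeR, unadjusted p = 0.0325).

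E-cadherin was at 0 counts in all 12 libraries. CDH1 (chr16:68737225-68835548) is annotated with 6177 bases of exon, and 0 of 291674417 counts over the libraries allows at most 0.0103 CPM. A gene at 0 was not rare in the table: of 18838 protein-coding genes, 2819 had no count in any library. On the same chromosome the neighbours ZFP90 and TANGO6 held 424 to 734 and 332 to 653 counts, and CDH3 (P-cadherin) held 0 to 3. CDH1 did not pass the filter, so it has no fold change or test.

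N-cadherin (CDH2, chr18:27950966-28177446) was at 114.5, 149.1 and 149.5 CPM in Control and at 122.5, 144.7 and 144.1 in ∆GAG-BG. It was at 129.6, 146 and 149.7 CPM in S534A and at 117.8, 147.8 and 149.3 in S545A. Replicate 1 was the lowest library of every group, and the 4 replicate 1 libraries (114.5 to 129.6 CPM) lay below the other 8 (144.1 to 149.7). Between groups the log2 fold changes of CDH2 lay between -0.035 and 0.048, and their 95% intervals between -0.316 and 0.328, while CDH2 in replicate 1 of Control was 0.766 times that of replicate 3.

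N-cadherin was not the most abundant classical or vascular cadherin. CDH5 (VE-cadherin, the cadherin of endothelial junctions) was at 168 to 431 CPM and CDH4 (R-cadherin) at 175 to 259 CPM, or 58.4 and 31.8 CPM per kilobase on average against 28 for CDH2. The lowest CDH5 value was that of S534A replicate 2. CDH24 was at 16.2 to 26.7 CPM, and all other cadherins listed were below 0.2 CPM per kilobase. The catenins that tie cadherins to actin were abundant, with CTNNB1 (β-catenin) at 630 to 679, CTNNA1 (α-catenin) at 702 to 846 and CTNND1 (p120) at 265 to 330 CPM. JUP (plakoglobin, shared by junctions and desmosomes) was at most at 0.0464 CPM. Of the 25 other cadherins and catenins, 8 passed the filter and 11 never exceeded 3 counts.

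**Figure D2:**
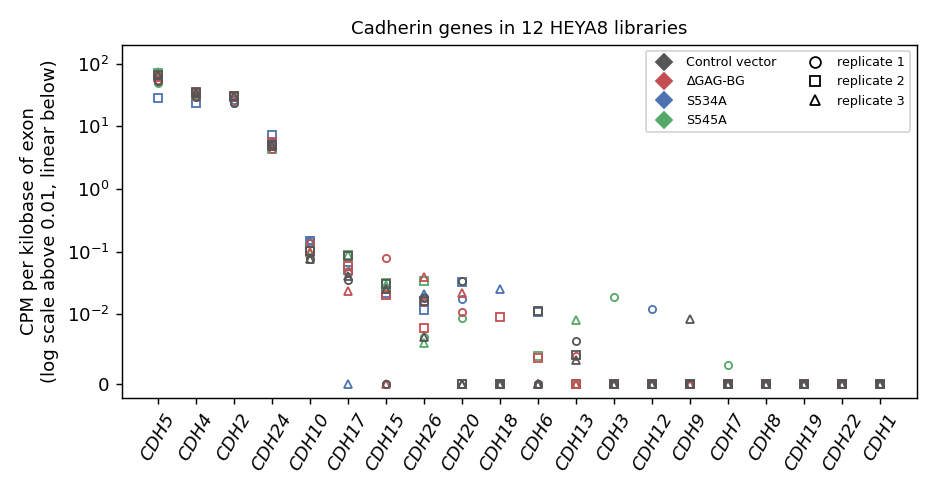
CPM per kilobase of exon of the cadherin genes (vertical axis, logarithmic above 0.01 and linear below), ordered by mean, with 1 point per library, coloured by group and shaped by replicate number. CDH5, CDH4 and CDH2 lie above 20 in every library, CDH24 between 4.31 and 7.13, and CDH1 at 0.

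Vimentin (VIM, chr10:17228259-17237593) was at 2902, 2640 and 2688 CPM in Control and at 3129, 2757 and 2594 in ∆GAG-BG. It was at 2341, 2543 and 2522 CPM in S534A and at 2620, 2820 and 2824 in S545A. The S534A libraries were the 3 lowest of all 12. Against ∆GAG-BG, VIM in S534A was 1.15-fold lower (2468 ± 111 against 2827 ± 274 CPM; log2 fold change -0.20, SE 0.088; edgeR, unadjusted p = 0.0454, adjusted p = 0.89). Without ∆GAG-BG replicate 1 the log2 fold change was -0.11 (unadjusted p = 0.196), and it also missed 0.05 without S534A replicate 1, S534A replicate 3 or ∆GAG-BG replicate 2 (unadjusted p = 0.148, 0.0709 and 0.0685). S545A was above S534A in all libraries, at 2755 ± 117 CPM, by 0.16 on the log2 scale (edgeR, unadjusted p = 0.0957, adjusted p = 0.702). VIM-AS1, an antisense gene that overlaps VIM by 641 bases, held 147 to 282 counts.

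Fibronectin (FN1, chr2:215360440-215436172) varied most over the 12 libraries. It was at 1034, 433.8 and 436.8 CPM in Control and at 1411, 829 and 895.6 in ∆GAG-BG. It was at 492.5, 320.9 and 429.8 CPM in S534A and at 650.5, 493.5 and 487.1 in S545A. Every S534A and S545A library lay below every ∆GAG-BG library, and Control overlapped each of the other groups. The highest and lowest libraries differed 4.4-fold, and 99.1% of the genes tested had a smaller SD of log2(CPM + 1) than the 0.634 of FN1. The added 1 shrinks the SD of scarce genes. On edgeR's estimate of the variation within groups, FN1 (0.283) stood above 90.4% of the genes tested, but below SNAI2 (0.296) and SNAI1 (0.323).

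In S534A against ∆GAG-BG, FN1 was 2.52-fold lower, at 414 ± 86.9 against 1045 ± 318 CPM. The log2 fold change was -1.33 (SE 0.334, 95% interval -2.07 to -0.60; edgeR, unadjusted p = 0.002, adjusted p = 0.89), and the gene ranked 12th by p among those tested. In S545A, at 544 ± 92.6 CPM, it was 1.92-fold lower than in ∆GAG-BG (log2 fold change -0.94, SE 0.332, 95% interval -1.67 to -0.22; edgeR, unadjusted p = 0.0156, adjusted p = 1). Both comparisons use the same ∆GAG-BG libraries. Neither passed the adjusted test, and the exact permutation test gave p = 0.1 for each, the smallest it can give with 3 against 3 libraries. For S534A against ∆GAG-BG, DESeq2 gave an adjusted p of 0.078 and limma-voom 0.836. When ∆GAG-BG replicate 1 was left out, the change was -1.05 in S534A (unadjusted p = 0.0108) and -0.66 in S545A (unadjusted p = 0.0806). ∆GAG-BG replicates 2 and 3, which then made up the group, held TGFBR3 at 20.3 and 21.4 CPM, near the 15.9 CPM of Control replicate 1.

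FN1 in ∆GAG-BG against Control had a log2 fold change of 0.72 (SE 0.33, 95% interval -0.01 to 1.44; edgeR, unadjusted p = 0.0515, adjusted p = 1). This value moved most with the libraries in it: 1.26 without Control replicate 1 and 0.43 without ∆GAG-BG replicate 1. Between S545A and S534A the log2 fold change of FN1 was 0.39 (95% interval -0.33 to 1.11; edgeR, unadjusted p = 0.259), so the interval holds both 0 and a difference of about 2-fold.

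Across the ∆GAG-BG and Control libraries, FN1 ran opposite to TGFBR3 in part. The 3 libraries with TGFBR3 at 15.9 to 21.4 CPM (Control replicate 1, ∆GAG-BG replicates 2 and 3) held FN1 at 1034, 829 and 895.6 CPM. The 2 Control libraries with TGFBR3 near 259 CPM held FN1 at 433.8 and 436.8 CPM, within the range of the S534A and S545A libraries. ∆GAG-BG replicate 1 did not follow that order, with TGFBR3 at 259.3 CPM and FN1 at 1411 CPM. It is the library with the highest HSPA5, which divided these 6 libraries as TGFBR3 did. Replicate 1 also had the highest FN1 of its 3 libraries in every group, Control included. Because TGFBR3 does not follow the labels, the construct and the library cannot be told apart for these 6 libraries, and the part of TGFBR3 in the FN1 values was not tested.

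**Figure D3:**
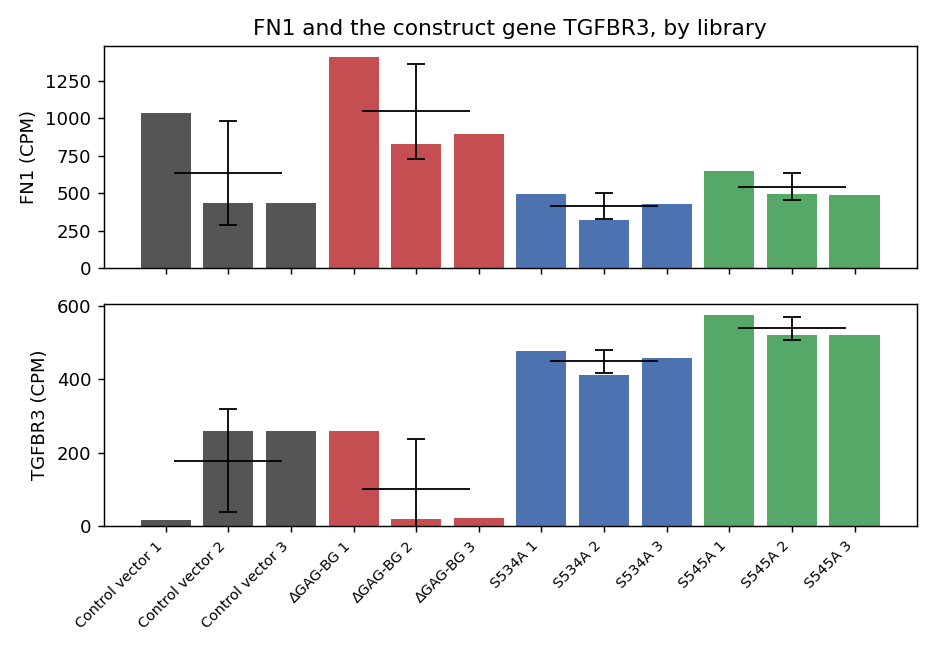
CPM of FN1 (upper panel) and TGFBR3 (lower panel), with 1 bar per library, coloured by group. Black lines are the group mean ± SD of 3 libraries, with the lower TGFBR3 line of ∆GAG-BG ending at 0. FN1 is at 829 CPM or more in the 3 libraries with little TGFBR3 and in ∆GAG-BG replicate 1, and at 650.5 CPM or less in the other 8.

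Over the 9 members tested, edgeR called none at an adjusted p under 0.05 in any of the 4 comparisons, and neither did DESeq2 or limma-voom. The background was the same, with 0% of the 16069 genes called by edgeR in each. With DESeq2 the calls were 5 genes for S534A over ∆GAG-BG and 1 for S545A over S534A, and with limma-voom 1 in each of these. At an unadjusted p under 0.05, no member passed in ∆GAG-BG against Control, where 0.865% of all genes did. In S534A against ∆GAG-BG, 2 members passed, VIM and FN1, both lower (2.99% of all genes). In S545A against ∆GAG-BG, 1 passed, FN1, lower (1.1% of all genes). In S545A against S534A, none passed (4.78% of all genes).

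The counts of members whose groups did not overlap were alike. There were 0 in ∆GAG-BG against Control (4.87% of all genes), 2 in S534A against ∆GAG-BG (VIM and FN1, 5.66% of all genes), 1 in S545A against ∆GAG-BG (FN1, 5.05% of all genes) and 1 in S545A against S534A (VIM, higher, 10.1% of all genes). The median log2 fold change of the members was 0.031, -0.056, -0.038 and -0.005 in the 4 comparisons in that order, beside 0.003, -0.003, -0.007 and 0 over all genes tested. These comparisons share libraries, so their values are not independent.

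**Figure D4:**
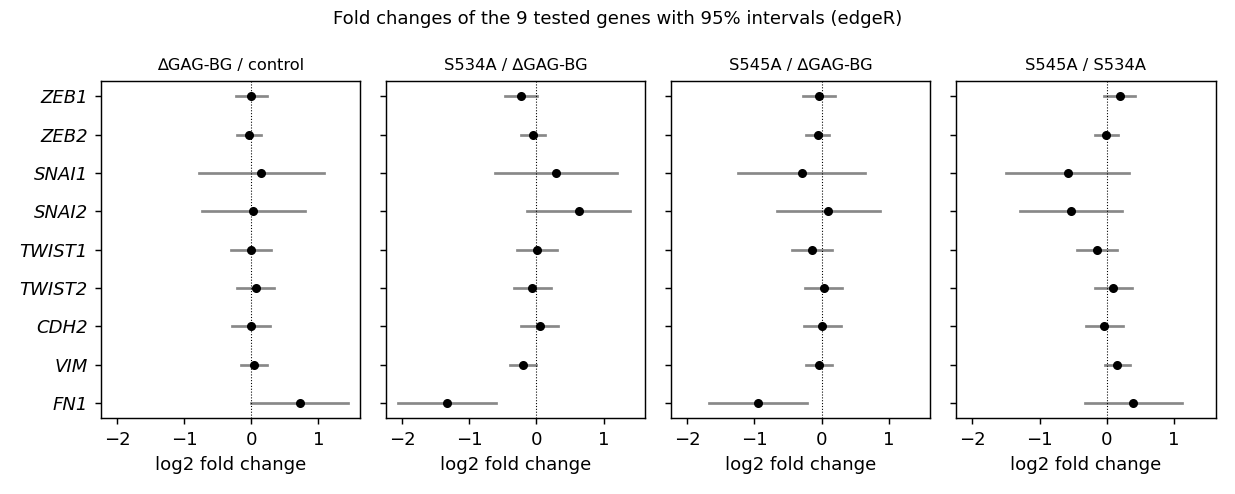
Log2 fold changes of the 9 tested genes in the 4 comparisons (points) with 95% intervals (lines) from edgeR, each panel giving the first group over the second. The intervals of FN1 in S534A and S545A over ∆GAG-BG and of VIM in S534A over ∆GAG-BG exclude 0, and those of SNAI1 and SNAI2 are the widest of the rest.

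The proteins that work with the factors, or set their stability, were mostly present. Of 28 such genes, 24 passed the filter, none had an adjusted p under 0.05 in any comparison by edgeR, and their median log2 fold change was -0.009, 0.025, -0.037 and -0.098 in the 4 comparisons in the order above. HDAC1, a deacetylase recruited by Snail and ZEB proteins, was at 137 to 183 CPM, KDM1A (LSD1), a demethylase that binds Snail, at 127 to 176, and CTBP2, a co-repressor of ZEB proteins, at 98.9 to 154. TCF3 (E2A), a partner of the TWIST factors, was at 117 to 145 CPM. The embryonic homeobox gene GSC had a log2 fold change of -0.84 in S545A against ∆GAG-BG (edgeR, unadjusted p = 0.0114, adjusted p = 1). GSC was scarce, at 0.512 to 1.21 CPM and at most 31 counts in a library, and so was ID2, at 0.194 to 2.47 CPM. ID2 and ID3 had log2 fold changes of -1.87 and -0.84 in S545A against S534A (edgeR, unadjusted p = 0.0179 and 0.0443, adjusted p = 0.702 each), with S534A replicate 2 the high library for both.

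Epithelial genes did not share one pattern with E-cadherin. Of 33 listed, 17 passed the filter and 8 never exceeded 3 counts. The simple-epithelium keratins were abundant, with KRT7 at 745 to 1139, KRT8 at 687 to 1006 and KRT18 at 451 to 674 CPM, and the tight junction gene CLDN1 was at 117 to 356 CPM. None had an adjusted p under 0.05 by edgeR in any comparison. DSP, the desmosome plaque protein desmoplakin, was at 34.4 ± 14.3 CPM in S534A and 58.7 ± 8.84 CPM in ∆GAG-BG. Its log2 fold change was -0.78 (SE 0.26; edgeR, unadjusted p = 0.0117, adjusted p = 0.89). In S545A against ∆GAG-BG it was -0.56 (SE 0.259; edgeR, unadjusted p = 0.0518).

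Of 23 further mesenchymal genes, 18 passed the filter and 3 never exceeded 3 counts. No gene of this list had an adjusted p under 0.05 by edgeR in any comparison. Abundant ones included AXL (929 to 1236 CPM), a receptor tyrosine kinase, and CD44 (911 to 1659 CPM), a hyaluronan receptor. Others were scarce or absent. CDH11 had no count in any library, and POSTN, COL1A2 and THY1 were at most at 0.0606, 0.0902 and 0.178 CPM. COL1A1, a fibrillar collagen chain, was at 9.24 ± 0.69 CPM in S545A and 14.3 ± 5.07 CPM in ∆GAG-BG. Its log2 fold change was -0.63 (edgeR, unadjusted p = 0.0373, adjusted p = 1). The groups overlapped (exact permutation test, p = 0.4), with ∆GAG-BG replicate 1, at 8.47 CPM, below every S545A library. Among the other cadherins and catenins, CDH24 had a log2 fold change of -0.31 in S545A against S534A (edgeR, unadjusted p = 0.045, adjusted p = 0.702).

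Some members moved with the replicate number. FN1 was among them, beside its differences between labelled groups, none of which passed the adjusted test. Within each of the 4 groups, replicate 1 had the highest FN1 and the highest TWIST2 and the lowest CDH2 of its 3 libraries. Across all genes tested, replicate 1 was highest in all 4 groups for 3.9% and lowest in all 4 for 3.92%, against 2 and 1 of the 9 members. TWIST2 was at 51.3 to 58.8 CPM in the replicate 1 libraries and at 42.3 to 48.1 in the other 8. SNAI1 and SNAI2 were at 1.24 to 1.62 and 33.2 to 41.1 CPM in replicate 1 libraries, above the rest (0.565 to 1.08 and 22.5 to 27.7 CPM) except for S534A replicate 2. The labels give no date or batch for these numbers, so what replicate 1 shares was not tested.

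**Figure D5:**
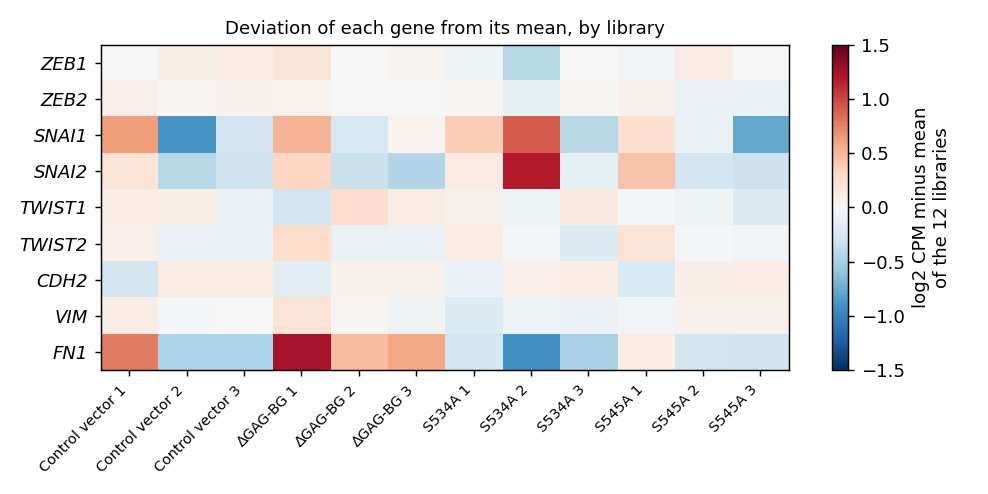
Log2 CPM of each of the 9 tested genes minus its own mean over the 12 libraries (colour, red above and blue below), by gene (rows) and library (columns). FN1, SNAI1 and SNAI2 hold the strong colours, CDH2 is blue in the 4 replicate 1 columns, and ZEB2 is pale throughout.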

How the data were processed

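The authors deposited 1 table of raw counts per gene for the 12 libraries, made from total RNA with the NEBNext Ultra II Directional kit. The submitters' processing notes name FastQC, Trim Galore 0.4.5, STAR 2.4, SAMtools 1.2 and featureCounts. They list a mouse build, but 36113 of the symbols are in GENCODE human release 29 and 33622 have the same GRCh38 coordinates there. The annotation and strand setting are not given in the sources used here, so reads of antisense partners cannot be told apart. The table's 37 mitochondrial genes hold no counts.

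From the counts, filterByExpr (minimum 10) and TMM were applied, and the main test was robust quasi-likelihood in edgeR 4.0.16 (R 4.3.3) in 1 model of the 4 groups, with Benjamini-Hochberg adjustment over 16069 genes. DESeq2 1.42.0 and limma 3.58.1 were alternatives, with those given in the closing section. Single genes also had an exact permutation test (two-sided). edgeR, DESeq2 and limma-voom were also run on simulated counts with known changes. Intervals and floors cover counting error or library spread only. Same-numbered libraries of compared groups had deviations correlated between -0.312 and 0.544, with at least 1 pair under 0.1 in each comparison, so the numbers were not taken as pairs.

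The members and lists were chosen with earlier results of these data known. All 10 members are named, with genes overlapping them, TGFBR3, and from each list the 2 genes with the smallest p per comparison and the 2 with the highest level per kilobase, of which those informative are given. For each tested member the 3 genes with the highest Pearson r of log2(CPM + 1) over the libraries were found. HSPA5 and other genes outside these rules were named after their values were seen. A gene of the mesenchymal list that this rule names is not reported here.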

Additional observations from a re-analysis of the deposited data

How the results depend on the processing

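All 36 log2 fold changes of the 9 tested members were recomputed under the alternatives, giving 540 values, of which 459 kept direction and side of an unadjusted p of 0.05, 14 passed to under 0.05, 10 to above it and 57 changed sign. No sign change was in a fold change above 0.286 in size, and none was in FN1. No member had an adjusted p under 0.05 under any alternative run. Causes of the changes below were not tested.

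Genes called over the whole table, 0 by edgeR as reported, became 5 (DESeq2), 1 (limma-voom) and 1 (no filter on low counts) in S534A against ∆GAG-BG, and 1 with each of these in S545A against S534A. Members under an unadjusted p of 0.05 went from 0 to 1 in ∆GAG-BG against Control with library size only, DESeq2, limma-voom or the replicate block (FN1), and from 2 to 1 in S534A against ∆GAG-BG with library size only, no filter, the replicate block, only the 2 groups, or libraries 2 and 3 summed (VIM lost), but to 3 with limma-voom (ZEB1 gained). Members not overlapping in S534A against ∆GAG-BG went from 2 to 3 with libraries 2 and 3 summed and ran from 2 to 3 with each library left out. The sum joined libraries 2 and 3 of Control, ∆GAG-BG and S545A only, and S534A kept its 3 libraries apart. The share of all genes not overlapping was not computed for the alternatives. With the replicate block, a fit that gives each replicate number its own term, the count in S545A against S534A went from 0 to 1, as FN1 there went from an unadjusted p of 0.259 to 0.0463, and FN1 in ∆GAG-BG against Control went from 0.0515 to 0.0013. Members not overlapping in ∆GAG-BG against Control went from 0 to 1 with library size only.

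In ∆GAG-BG against Control, ZEB1 (0.002) became -0.002 with RLE factors, DESeq2 or only the 2 groups, -0.013 with no filter and 0 with library size only. TWIST1 (0.001) became -0.004 with RLE factors or DESeq2, -0.001 with at least 10 counts in every library, -0.014 with limma-voom, -0.013 with no filter, -0.005 with only the 2 groups, -0.002 with the replicate block and -0.092 with libraries 2 and 3 summed. CDH2 (-0.006) became 0.001 with limma-voom and 0.01 with libraries 2 and 3 summed. ZEB2 in S545A against S534A (-0.005) became 0.001 with at least 10 counts in every library and 0.022 with libraries 2 and 3 summed.

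With each library left out in turn, log2 fold changes that changed sign in ∆GAG-BG against Control ran from -0.063 to 0.037 for ZEB1, -0.116 to 0.677 for SNAI1, -0.248 to 0.246 for SNAI2, -0.123 to 0.133 for TWIST1, -0.085 to 0.129 for TWIST2, -0.123 to 0.061 for CDH2 and -0.045 to 0.099 for VIM. In S534A against ∆GAG-BG they ran from -0.058 to 0.527 for SNAI1, -0.131 to 0.127 for TWIST1, -0.144 to 0.081 for TWIST2 and -0.023 to 0.109 for CDH2. In S545A against ∆GAG-BG they ran from -0.081 to 0.025 for ZEB1, -0.182 to 0.374 for SNAI2, -0.052 to 0.176 for TWIST2, -0.056 to 0.123 for CDH2 and -0.093 to 0.048 for VIM. In S545A against S534A they ran from -0.056 to 0.026 for ZEB2 and -0.094 to 0.072 for CDH2.

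Members under an unadjusted p of 0.05 then ran from 0 to 1 in ∆GAG-BG against Control (1 without Control replicate 1 or ∆GAG-BG replicate 2), from 1 to 3 in S534A against ∆GAG-BG and from 0 to 2 in S545A against S534A (2 without S534A replicate 3). Members not overlapping ran from 0 to 3 in ∆GAG-BG against Control (3 without Control replicate 1), from 1 to 4 in S545A against ∆GAG-BG (4 without ∆GAG-BG replicate 1) and from 1 to 3 in S545A against S534A, and with fewer libraries groups separate more easily by construction. Depth limits SNAI1, with 12 to 59 counts per library, more than the other members.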

Other observations

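The genes whose levels followed each member most closely over the 12 libraries are given as a description, since the libraries share groups and replicate numbers. For FN1 they were ANTXR2 (Pearson r 0.91), RAB11FIP1 (0.90) and FAM20C (0.90), and without S534A replicate 2 the r of FAM20C was 0.97. For SNAI2 they were RAP2B (0.98), CRYL1 (0.97) and TGFBI (0.97), and TGFBI, a matrix protein named for its induction by TGF-β, was still at 0.93 without S534A replicate 2. For ZEB1 they were APBB2 (0.97), LMAN1 and ZKSCAN8, and these fell to between 0.84 and 0.86 without that library. CDH2 was followed by DDX5 (0.98), an RNA helicase, with SCAF11 and UNK, TWIST2 by RPS2P5 (0.95), TWIST1 by YAF2 (0.94), VIM by ERCC1 (0.94), SNAI1 by PUM3 (0.94) and ZEB2 by TRIM32 (0.93). Among the members themselves, TWIST2 and CDH2 ran opposite to each other (r -0.84) and SNAI1 and SNAI2 ran together (r 0.84). Leaving out S534A replicate 2 was chosen after seeing the data.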
